A study of Homo sapiens with 8 samples.

Results

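Open chromatin was examined around 10 genes of the BCL2 family, BCL2, BCL2L1, MCL1, BCL2A1, BAX, BAK1, BCL2L11, BMF, PMAIP1 and BID, out of 20007 protein-coding genes of the annotation. A region counted when it overlapped the GENCODE gene body extended by 50 kb on each side on the human build hg38, which gave 248 of the 161291 regions found in any condition. The proteins of this family decide whether the outer mitochondrial membrane is breached during apoptosis. BCL2, BCL-xL (the product of BCL2L1), MCL1 and BFL-1 (BCL2A1) protect the membrane, BAX and BAK (BAK1) form pores in it, and the BH3-only proteins BIM (BCL2L11), BMF, NOXA (PMAIP1) and BID either neutralise the protectors or activate the pore formers. In acute myeloid leukaemia, BCL2 and MCL1 are known as survival factors and as drug targets, and NOXA is known for its selective binding to MCL1.

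The cells were U-937, an established human acute myeloid leukaemia line of monocytic character, so every group comes from 1 line. Cultures received DMSO as vehicle, all-trans retinoic acid (ATRA, the ligand of the retinoic acid receptors) at 0.1 µM, Corin at 0.1 µM, or ATRA and Corin together at 0.1 µM each, and were collected after 24 h. Corin is a bifunctional inhibitor aimed at CoREST, a co-repressor complex that joins a histone deacetylase to a lysine demethylase. ATAC-seq, in which a transposase inserts adapters into accessible DNA, was run on 8 samples, 2 in each of the 4 groups, but the authors combined the replicates into 1 list of peaks per group. Replicate error is therefore unknown for every value below and no test was possible, and because each list averages a population, more cells with an open site cannot be told apart from a site that is more open in each cell. The read depth is unknown. The fold of a peak over its local background is the authors' value. Since its median over the 66303 regions called in all 4 lists was 8.74 in DMSO, 11.8 in ATRA, 7.92 in Corin and 8.81 in the combination, each region was also given its percentile of fold among these same 66303 regions within its list, from 0 for the weakest to 100 for the strongest. A region is said to have moved when its percentile differed by at least 20 points.

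The sites with the largest differences mostly lay in introns or between genes. The sequences at the strongest summits of 7 of these regions, at BCL2, BCL2L1, BAK1 and PMAIP1, are given here. They are the plus strand of hg38, up to 200 bases long and clipped where an exon was near, and capitals mark matches on either strand to AP-1 (TGANTCA), PU.1 (GAGGAAGT), C/EBP (TTGCNNAA) or RUNX (TGTGGTT), factors with known roles in myeloid cells. The first 3 sequences carry an AP-1 match and lay in regions that ranked lowest in the ATRA list and highest in the Corin list.
BCL2 chr18:63161870-63162029: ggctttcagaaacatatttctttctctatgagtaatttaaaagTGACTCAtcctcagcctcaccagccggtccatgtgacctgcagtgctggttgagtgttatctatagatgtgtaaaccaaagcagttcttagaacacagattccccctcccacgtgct
PMAIP1 chr18:59918558-59918757: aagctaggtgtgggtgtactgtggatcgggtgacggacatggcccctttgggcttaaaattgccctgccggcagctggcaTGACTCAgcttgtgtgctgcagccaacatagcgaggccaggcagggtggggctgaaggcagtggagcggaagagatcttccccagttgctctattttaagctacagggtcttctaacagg
BAK1 chr6:33597018-33597217: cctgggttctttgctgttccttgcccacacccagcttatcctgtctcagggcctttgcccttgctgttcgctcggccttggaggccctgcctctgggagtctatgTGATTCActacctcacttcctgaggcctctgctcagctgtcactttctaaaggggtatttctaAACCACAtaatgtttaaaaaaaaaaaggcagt
The next 3 sequences lay in regions that ranked highest in the ATRA list, and they share no single motif among those searched.
BCL2 chr18:63271888-63272087: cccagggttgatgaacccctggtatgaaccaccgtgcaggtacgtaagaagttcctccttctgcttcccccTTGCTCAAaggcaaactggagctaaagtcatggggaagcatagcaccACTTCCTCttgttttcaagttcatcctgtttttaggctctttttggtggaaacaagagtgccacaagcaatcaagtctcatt
BCL2L1 chr20:31699245-31699444: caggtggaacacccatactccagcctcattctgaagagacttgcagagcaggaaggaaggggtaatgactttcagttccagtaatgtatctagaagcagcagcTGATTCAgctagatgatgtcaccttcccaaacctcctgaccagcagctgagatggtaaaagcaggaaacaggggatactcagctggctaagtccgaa
BCL2L1 chr20:31706781-31706980: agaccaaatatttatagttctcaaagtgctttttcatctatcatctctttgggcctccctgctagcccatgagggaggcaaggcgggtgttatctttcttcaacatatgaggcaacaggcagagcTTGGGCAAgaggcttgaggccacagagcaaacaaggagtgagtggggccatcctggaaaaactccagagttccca
The last sequence, in an intron of BCL2L1, lay in a region that ranked low in both lists made with ATRA.
BCL2L1 chr20:31684795-31684994: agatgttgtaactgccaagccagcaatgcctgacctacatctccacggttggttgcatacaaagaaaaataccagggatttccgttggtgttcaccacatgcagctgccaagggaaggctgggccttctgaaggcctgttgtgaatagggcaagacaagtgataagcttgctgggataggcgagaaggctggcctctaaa

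Around the 10 genes, 196 regions were called in DMSO, 179 in ATRA, 175 in Corin and 154 in the combination, where the whole lists held 116563, 113914, 101851 and 94917. Of the 248 regions, 118 were called in all 4 lists (47.6%, against 41.1% of all regions), and 69 were called in a single list (27.8%, against 33.6%). ATRA divided 15 regions, which were called in both lists with ATRA and in neither without it or the reverse (6.05%, against 7.44% of all regions). Corin divided another 15 in the same way (6.05%, against 6.65%). No interval was set on these 4 shares.

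**Figure D1:**
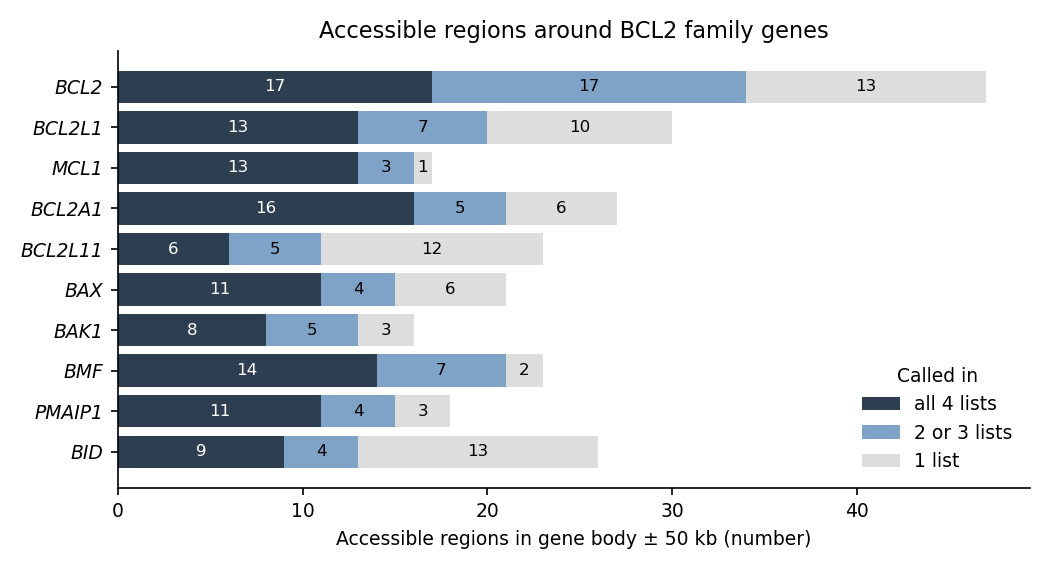
Number of open regions (x axis) within the gene body and 50 kb on each side of the 10 genes (y axis). Each bar is split into regions called in all 4 lists, in 1 list only, or in between. BCL2 has 47 regions, 17 of them in all 4 lists, and MCL1 has 17, 13 of them in all 4 lists.

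Most regions gained or lost against DMSO were weak, and none was among the strongest 20% of the list that held it by −log10 p. Of the regions lost, 40 of 42 with ATRA, 40 of 47 with Corin and 49 of 57 with the combination were in the weaker 50% of the DMSO list. The highest fold among the DMSO regions lost with the combination was 9.42, above the median of 8.74 over the shared regions. With ATRA, 26 of 179 regions had no counterpart in DMSO (14.5%, 95% Wilson interval 10.1% to 20.4%), where 23.1% of all ATRA regions had none. In the other direction, 42 of 196 DMSO regions had no counterpart with ATRA (21.4%, 16.3% to 27.7%, against 25.3% of all DMSO regions). The intervals cover counting error over regions only. The interval of the gains with ATRA lay below the share of all regions, while that of the losses included it. For the gains the interval included the matching share with a −log10 q of at least 5 (17.8%, 12.8% to 24.2%, against 23.2%), with lists of equal length (14.9%, 10.2% to 21.4%, against 18.0%) and with 10 kb windows (15.1%, 9.18% to 23.7%, against 23.1%). It stayed below the matching share with 50% of a region covered (17.9%, 13% to 24.1%, against 26.5%). The same held with 100 kb windows (16.6%, 12.6% to 21.6%, against 23.1%) and with peaks within 150 bp merged (14.3%, 9.87% to 20.2%, against 22.7%).

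With Corin, 27 of 175 regions were gained over DMSO (15.4%, 10.8% to 21.5%, against 17.7%). Losses with Corin numbered 47 of 196 (24.0%, 18.5% to 30.4%, against 28.5%). With the combination, 16 of 154 were gained (10.4%, 6.5% to 16.2%, against 16.7%), and this interval too lay just below the share of all regions. Losses there numbered 57 of 196 (29.1%, 23.2% to 35.8%, against 31.5%). Each treatment list thus lacked more DMSO regions than it added around these genes, and all of these comparisons share the DMSO list. The lists differed in length, however, and when all were shortened to the same length the balance of Corin turned round. It then had 34 gained (20.1%, against 19.1% of all regions) and 25 lost regions (15.5%, against 19.7%). ATRA had 23 gained and 29 lost (14.9% and 18.0%, against 18.0% and 18.2%), and the combination 28 and 34 (18.2% and 21.1%, against 21.2% and 20.8%), near the shares of all regions.

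Between treatments, 19 of 154 regions of the combination had no counterpart with ATRA (12.3%, 8.04% to 18.5%, against 15.5%) and 44 of 179 ATRA regions had none in the combination (24.6%, 18.9% to 31.4%, against 28.4%). Against Corin, 23 of 154 regions of the combination were gained (14.9%, 10.2% to 21.4%, against 20.6%) and 45 of 175 Corin regions were lost (25.7%, 19.8% to 32.7%, against 25%). The intervals of these 4 shares included the shares of all regions.

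Among the 118 regions called in every list, the ranks shifted most with ATRA. ATRA moved 14 regions up (11.9%, against 12.5% of all 66303 regions) and 13 down (11.0%, against 10.3%). Corin moved 3 up (2.54%, against 6.38%) and 4 down (3.39%, against 7.58%), and the 95% Wilson intervals of 0.868% to 7.21% and 1.33% to 8.39% include the shares of all regions. The combination moved 8 up (6.78%, against 9.07%) and 7 down (5.93%, against 9.95%) relative to DMSO. Relative to ATRA alone the combination moved 9 up (7.63%, against 9.6%) and 5 down (4.24%, against 12.2%), and relative to Corin alone 5 up (4.24%, against 8.31%) and 8 down (6.78%, against 7.71%). For the fall in the combination against ATRA the interval of 1.82% to 9.54% lay below the share of all regions, and for the other 9 counts it included that share. With a fold ratio of at least 1.5 in place of ranks, or a limit of 10 points, the interval of that fall included it too (8.47%, 4.67% to 14.9%, against 11.8%, and 17.8%, 11.9% to 25.7%, against 22.7%). Other settings did not remove the difference. Ranked by −log10 p, or with 10 kb windows, the share that fell was smaller than 4.24% and below the share of all regions, as the closing section gives. The counts around the family were thus not told apart from those of all regions in most comparisons.

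**Figure D2:**
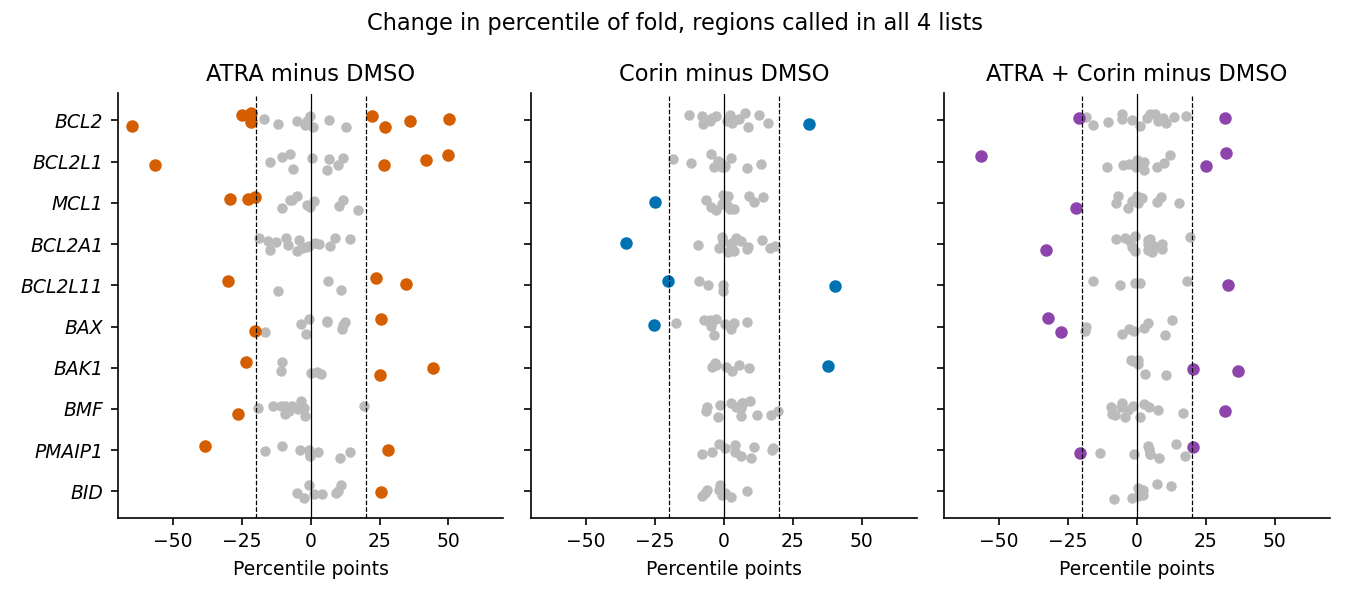
Difference in percentile of fold (x axis) from DMSO for each region called in all 4 lists (points), by gene (y axis), with 1 panel for each treatment and lines at the 20-point limit. Points spread from -64.9 to 50.2 with ATRA, while with Corin 7 of the 118 points lie outside the limit.

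Position hardly changed with treatment. The strongest summit lay within 50 bp of that in DMSO at 105 of the 118 shared regions with ATRA (89.0%, against 90.6% of all shared regions), at 103 with Corin (87.3%, against 91.1%) and at 106 with the combination (89.8%, against 90.7%). Regions within 1 kb of an annotated start of 1 of the 10 genes were the most constant, with 13 of 16 called in all 4 lists (81.2%). The share was 59.0% for the 39 regions at starts of other genes in the windows, 45.8% for the 59 regions elsewhere in the gene bodies and 41.0% for the 134 flanking regions. The matching share over promoter regions of all genes was not calculated, so these values compare classes within the windows only. Of the 14 regions that rose with ATRA, 7 were among the 27 shared regions in gene bodies and 6 among the 55 in flanks. A further 1 was among the 23 at starts of other genes, and 0 were among the 13 at starts of the family. Over all shared regions, 5.30% of those at coding promoters and 14.8% of those elsewhere rose with ATRA.

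All 10 genes had an open promoter in all 4 lists, but the share of all coding genes with one was not calculated. BAK1 had the highest promoter rank of the 10 in each list and BID or BMF the lowest, as the plot of promoter percentiles shows. Promoters of coding genes as a class (15960 shared regions) ranked lower with ATRA, with a median percentile of 67.8 in DMSO, 60.01 in ATRA, 70.1 in Corin and 69.7 in the combination. Of the strongest promoter region of each gene, 1 of 10 moved against DMSO with ATRA (BCL2, downwards) and 0 with Corin or the combination. A weaker region at an internal BCL2 start, described below, also fell with ATRA and rose with Corin. Over all coding promoters ATRA moved 5.30% up and 10.3% down. Relative to ATRA alone, the combination moved 3 of the 10 up (BCL2, BCL2A1 and BMF) and 0 down, where 13.4% of all coding promoters moved up. These moves depended on ranking by fold. Ranked by −log10 p, BCL2A1 stood at 75.1 in ATRA and 82.2 in the combination, and BMF at 82.8 and 89.3, both under the limit. BCL2 still moved up, from 67.3 to 88.1, but its fall from 85.7 in DMSO to 67.3 in ATRA was under the limit.

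**Figure D3:**
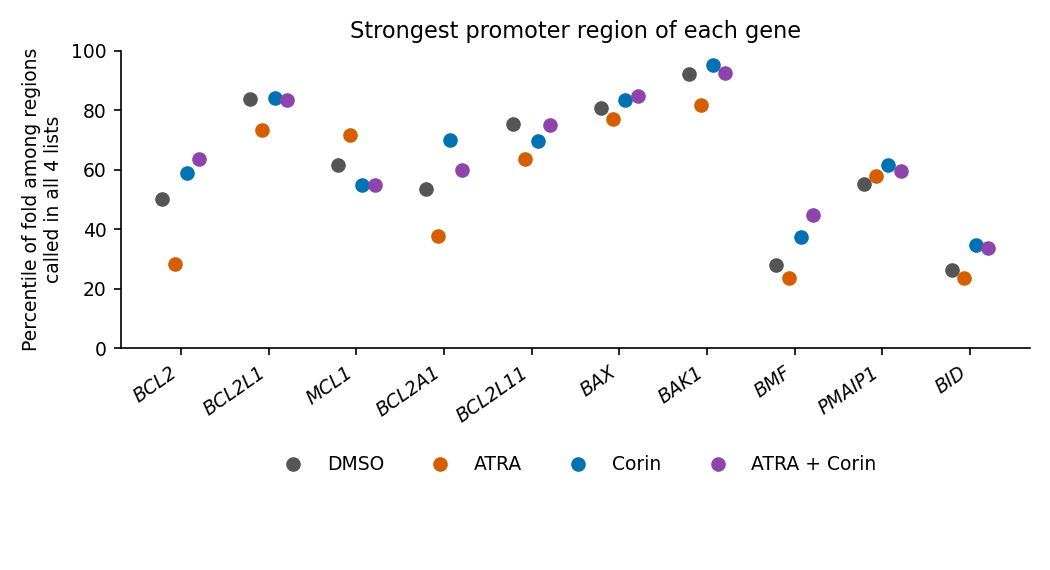
Percentile of fold (y axis) of the strongest promoter region of each of the 10 genes (x axis) in the 4 lists (points). BAK1 is at the top in all lists, between 81.8 and 95.2, and BCL2 has its lowest point, 28.3, in ATRA.

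Among the protectors, BCL2 (ENSG00000171791.14) on chromosome 18, 63123346 to 63320128 on the minus strand, showed the widest set of differences. Its window was also the longest, at 296.8 kb, where those of the other genes spanned 104.3 to 159.5 kb. Of its 47 regions, 17 were called in all 4 lists, and the number of regions was 40 in DMSO, 34 in ATRA, 30 in Corin and 21 in the combination. With the combination 19 regions were lost against DMSO and 1 was gained, where 31.5% of all DMSO regions were lost and 16.7% of all regions of the combination were gained. The whole list also shrank, from 116563 to 94917 regions. Its main promoter region (63319456 to 63321034) had a fold of 8.76 in DMSO, 7.97 in ATRA, 9.39 in Corin and 11.2 in the combination. The corresponding percentiles were 50.1, 28.3, 58.9 and 63.7. The promoter thus ranked lowest with ATRA, and 35.3 points higher with the combination than with ATRA alone.

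Inside the gene, the region at 63161510 to 63162157 had the largest fall of all 118. It lies 158198 bp downstream of the 5′ end, in an intron and 61 bp from a start of a shorter BCL2 transcript. Its fold was 11.3 in DMSO, 2.77 in ATRA, 20.6 in Corin and 8.56 in the combination. In percentiles the values were 66.8, 1.83, 97.7 and 48.4. The authors' −log10 p of the same region was 202 in DMSO, 6.41 in ATRA, 710 in Corin and 80.04 in the combination. This site, the first AP-1 sequence above, was among the strongest shared regions of the genome with Corin and among the weakest with ATRA, and it lay between the 2 single treatments when both compounds were present.

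Other intronic regions of BCL2 went the other way. The region at 63271637 to 63272405, 48140 bp into the gene and carrying the C/EBP and PU.1 matches shown above, had a fold of 3.59 in DMSO, 13.3 in ATRA, 2.62 in Corin and 7.38 in the combination. Its percentiles of 8.58, 58.7, 4.43 and 40.7 were high in both lists with ATRA and low in both without it. Near the 3′ end, the region at 63141559 to 63142568 rose with ATRA alone, with percentiles of 17.8, 53.8, 19.9 and 7.47. Its rank in the combination was thus below that in DMSO. The region at 63236082 to 63237619 had a fold of 10.5, 18.8, 10.0 and 14.5 and was stronger in both lists with ATRA. Of the regions lost only with the combination, the strongest (63178562 to 63178939, intronic) had a fold of 9.42 in DMSO, 6.62 in ATRA and 7.57 in Corin. A region just downstream of the gene (63119648 to 63120060) was called in DMSO (fold 7.01) and ATRA (5.34) and in neither list with Corin.

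**Figure D4:**
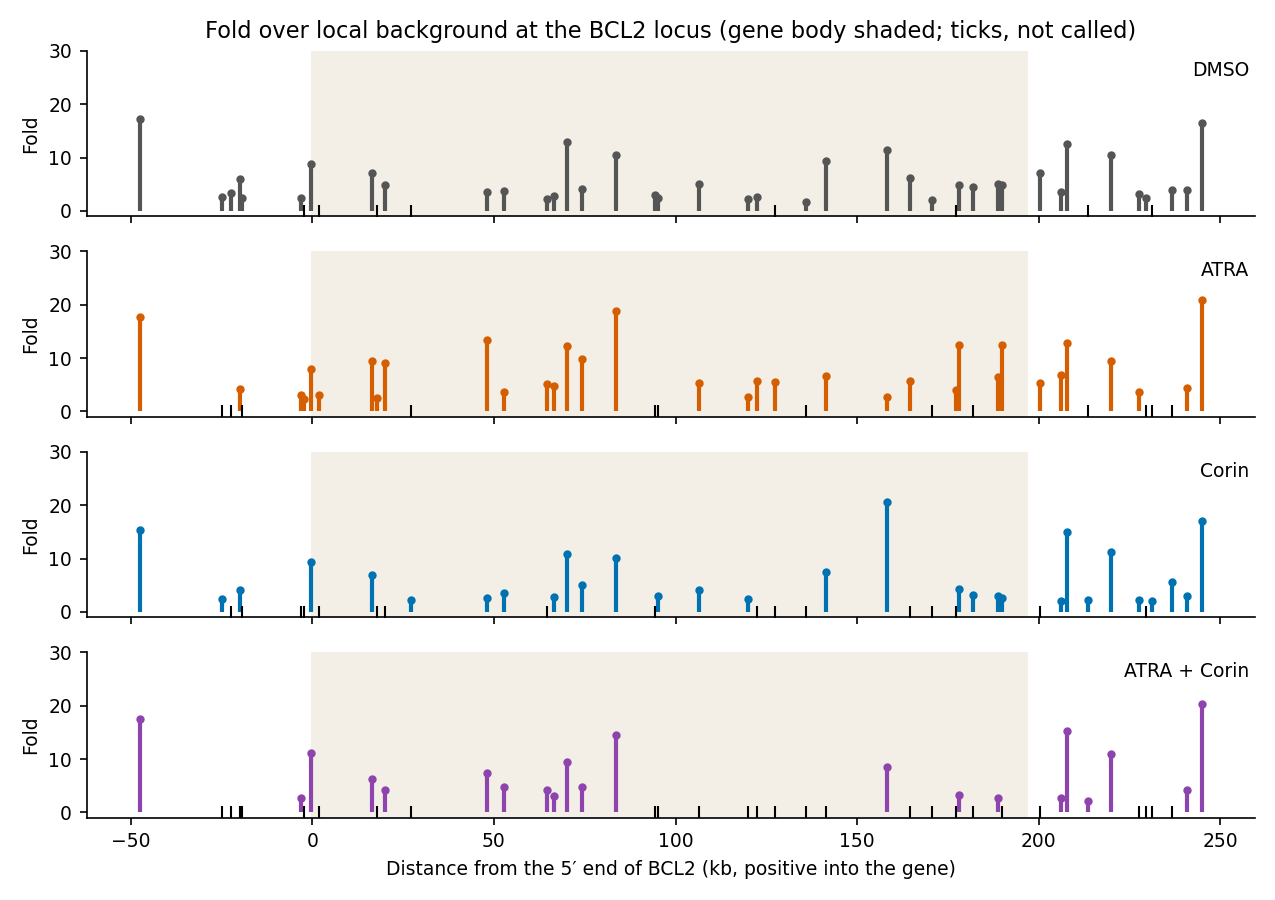
Fold over local background (y axis) of each open region at the BCL2 locus against its distance from the 5′ end of the gene in kb (x axis), with 1 panel per list, the gene body shaded and short ticks where a region of another list was not called. The intronic region 158198 bp into the gene rises to 20.6 with Corin and falls to 2.77 with ATRA.

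BCL2L1 (ENSG00000171552.14; chromosome 20, 31664452 to 31723989, minus strand) encodes the protector BCL-xL. It had 30 regions, 13 of them in all 4 lists, and between 19 and 21 per list. Its promoter region (31722609 to 31724161) had a fold of 14.9 in DMSO, 16.3 in ATRA, 14.6 in Corin and 15.5 in the combination. The percentiles of 83.8, 73.4, 84.2 and 83.4 differed by no more than 10.5 points from DMSO.

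The introns of BCL2L1 held sites that changed in opposite directions with ATRA. The region at 31684182 to 31685357, within 1 kb of a start of the antisense gene BCL2L1-AS1, had a fold of 11.7 in DMSO, 5.06 in ATRA, 7.98 in Corin and 3.75 in the combination. Its percentiles were 68.6, 12.0, 50.3 and 12.0, so it ended at the same low rank in both lists with ATRA. The fall was 56.7 points from DMSO to ATRA and 38.3 points from Corin to the combination. The region at 31699050 to 31699870 had a fold of 3.20, 12.8, 4.17 and 7.04 in the same order. Its percentiles of 5.94, 55.9, 19.3 and 38.3 were highest with ATRA, although its sequence, like that of the BCL2 site that fell, contains an AP-1 match. The neighbouring region at 31705901 to 31707241, with a C/EBP match, had percentiles of 15.8, 57.6, 12.1 and 40.7. Between them and the 3′ end, a region at 31686266 to 31686829 was called with ATRA (fold 7.73) and with the combination (3.23) only. Thus both lists with ATRA ranked the same 2 intronic sites higher than DMSO and the same intronic site lower, with smaller rises in the combination.

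MCL1 (ENSG00000143384.14; chromosome 1, 150560895 to 150579738, minus strand) had the most constant surroundings, with 13 of 17 regions called in all 4 lists. Of 16 regions called in DMSO 2 were lost with ATRA, and none of the 14 called with ATRA was gained. Over all regions, 25.3% of those in DMSO were lost and 23.1% of those in ATRA were gained. The MCL1 promoter (150578445 to 150580266) had a fold of 10.5 in DMSO, 15.9 in ATRA, 8.74 in Corin and 9.63 in the combination, and its percentiles were 61.6, 71.8, 55.03 and 54.9. It was highest with ATRA, by 10.2 points over DMSO, which is below the limit for a move. ATRA moved 3 regions in the MCL1 window down and 0 up, and all 3 lay upstream in introns of neighbouring genes. The largest of these falls, 31970 bp upstream (150611300 to 150612100), took the percentile from 66.4 in DMSO to 37.0 in ATRA, with 66.2 in Corin and 64.6 in the combination.

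BCL2A1 (ENSG00000140379.9; chromosome 15, 79960892 to 79971196, minus strand) is a known target gene of NF-κB in leukocytes. Of its 27 regions 16 were called in all 4 lists, and ATRA moved none of the 16. The promoter (79970710 to 79971674) had a fold of 9.24 in DMSO, 9.65 in ATRA, 11.4 in Corin and 10.5 in the combination, and percentiles of 53.5, 37.9, 70.1 and 59.8. It ranked highest with Corin. The region at 79933069 to 79933850, 37752 bp downstream of the 5′ end and outside the gene, had a fold of 7.42, 9.17, 2.66 and 3.17. Both lists with Corin thus ranked it low, with percentiles of 4.71 and 7.25 against 40.2 in DMSO and 35.2 in ATRA. In the flank 40029 bp upstream, a region at 80010848 to 80011540 was called in DMSO (fold 3.51) and Corin (9.97) and in neither list with ATRA.

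Of the pore formers, BAX (ENSG00000087088.21; chromosome 19, 48954815 to 48961798, plus strand) had 21 regions, 11 of them in all 4 lists. The BAX promoter (48954378 to 48955536) had a fold of 14.1 in DMSO, 17.1 in ATRA, 14.4 in Corin and 15.8 in the combination. Its percentiles of 80.7, 77.2, 83.4 and 84.7 lay within 4 points of DMSO. A region 7521 bp upstream (48946371 to 48947767) rose with ATRA, from a percentile of 14.1 in DMSO to 39.8, with 10.5 in Corin and 24.4 in the combination. At a start of the antisense gene NUCB1-AS1 the region at 48918558 to 48919247 had percentiles of 28.2, 34.3, 2.71 and 0.618. That site ranked near the bottom in both lists with Corin.

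BAK1 (ENSG00000030110.14; chromosome 6, 33572547 to 33580293, minus strand) had 16 regions, 8 of them in all 4 lists. The promoter (33579428 to 33580659) had a fold of 17.5 in DMSO, 18.3 in ATRA, 18.7 in Corin and 18.5 in the combination. Its percentiles of 92.3, 81.8, 95.2 and 92.6 were high in every list. The intergenic region 16825 bp upstream (33596894 to 33597462), with AP-1 and RUNX matches, had a fold of 4.38 in DMSO, 3.36 in ATRA, 8.35 in Corin and 3.93 in the combination. It stood out with Corin alone, at a percentile of 52.7, against 14.7 in DMSO, 3.98 in ATRA and 13.4 in the combination.

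The BH3-only gene BCL2L11 (ENSG00000153094.25; chromosome 2, 111119378 to 111168444, plus strand) had the fewest constant regions, 6 of 23. Its strongest promoter region (111120220 to 111122780) had a fold of 13.0 in DMSO, 14.3 in ATRA, 11.4 in Corin and 13.4 in the combination, and percentiles of 75.6, 63.6, 69.8 and 74.9. Downstream of the gene, the region at 111189613 to 111190739 was near the bottom without ATRA and higher with it, at percentiles of 1.83 in DMSO, 36.3 in ATRA, 1.63 in Corin and 20.1 in the combination. At a start of the long non-coding RNA gene MIR4435-2HG, the region at 111208969 to 111209356 had percentiles of 3.22, 26.8, 43.5 and 36.2. There each of the 3 treatments gave a higher rank than DMSO, and the rank was highest with Corin. Within the first part of the gene, the intronic region at 111135384 to 111136473 ranked lower with every treatment, at 65.0, 35.2, 44.9 and 49.0.

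BMF (ENSG00000104081.14; chromosome 15, 40087890 to 40108892, minus strand) had 23 regions, 14 of them in all 4 lists. Its main promoter region (40108454 to 40109527) had a fold of 5.96 in DMSO, 7.15 in ATRA, 6.20 in Corin and 7.99 in the combination. In percentiles this was 28.0, 23.6, 37.5 and 44.7, highest with the combination. An exonic region near the 3′ end of BMF (40088260 to 40089552) ranked 1.73 in DMSO, 21.2 in ATRA, 21.4 in Corin and 33.7 in the combination. Each compound alone gave a difference just under the limit for a move (19.5 and 19.6 points), and both together gave 31.9 points. A region 41508 bp upstream (40149958 to 40151012) ranked 72.4, 45.9, 89.6 and 63.0, lower with ATRA and higher with Corin.

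PMAIP1 (ENSG00000141682.12; chromosome 18, 59899996 to 59904305, plus strand) encodes NOXA, a known target of p53. It had 18 regions, 11 of them in all 4 lists. The promoter (59899345 to 59901118) had a fold of 9.51 in DMSO, 13.2 in ATRA, 9.88 in Corin and 10.4 in the combination, with percentiles of 55.4, 58.0, 61.7 and 59.6 that differed by less than 7 points. Downstream of PMAIP1, 2 intergenic regions moved in opposite directions with ATRA. The nearer one (59911183 to 59912148) rose from 21.6 in DMSO to 49.8 in ATRA, with 21.8 in Corin and 42.0 in the combination. The farther one, at 59918194 to 59918950 and with the AP-1 match above, went from 69.0 in DMSO to 30.5 in ATRA, with 78.7 in Corin and 48.5 in the combination.

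BID (ENSG00000015475.19; chromosome 22, 17734138 to 17774770, minus strand) links death receptors to mitochondria through its cleavage by caspase-8. It had 26 regions, 9 of them in all 4 lists, with 17 called in DMSO and 9 in the combination. Against DMSO, 8 regions were lost with the combination and 0 were gained. Over all regions, 31.5% of those in DMSO were lost and 16.7% of those in the combination were gained. The BID promoter (17773491 to 17774731) had a fold of 5.74 in DMSO, 7.19 in ATRA, 5.86 in Corin and 6.41 in the combination, with percentiles of 26.2, 23.7, 34.6 and 33.6. In the first part of the gene, an intronic region 3009 bp from the 5′ end (17771430 to 17772038) ranked 10.7 in DMSO, 36.2 in ATRA, 2.70 in Corin and 22.97 in the combination. Both lists with ATRA thus ranked it above DMSO, and Corin alone gave its lowest rank.

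**Figure D5:**
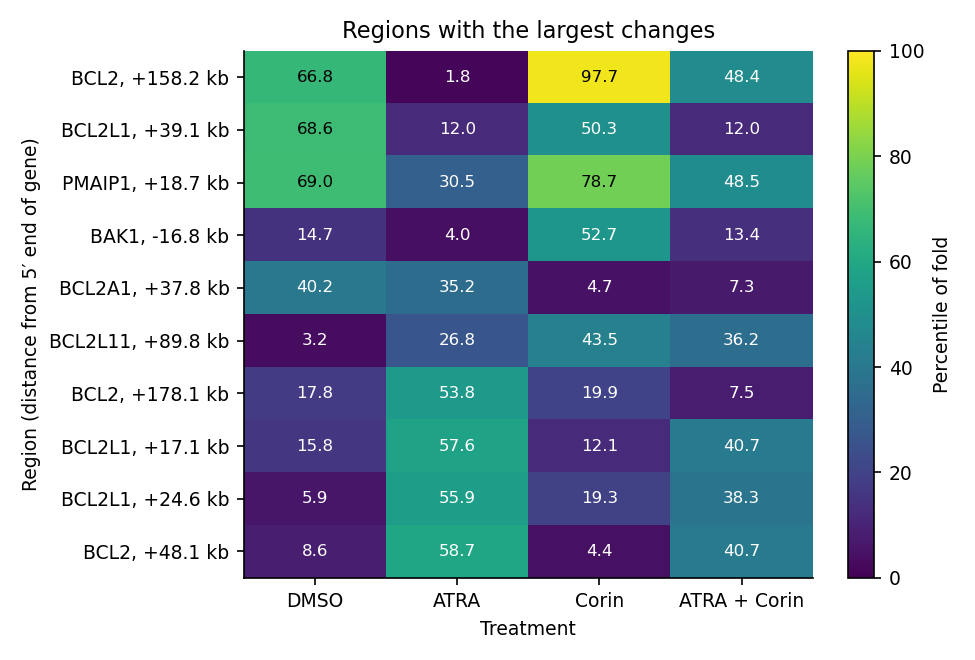
Percentile of fold (colour and printed value) in the 4 lists (x axis) for 10 of the 11 shared regions with a difference of at least 35 points from DMSO in any treatment (y axis, gene and distance from its 5′ end in kb). The lower rows are bright in ATRA, and the BCL2 site at the top ranges from 1.8 in ATRA to 97.7 in Corin.

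The sequences at the regions that moved were compared with those of all regions, in 200 bp at the strongest summit. An AP-1 match was found in 32 of the 248 regions (12.9%, against 12.2% of all regions). All 3 regions that rose with Corin contained one, where 48.9% of all regions that rose with Corin did. Of the 13 that fell with ATRA 5 contained one (38.5%, against 27.4% of all that fell), and of the 8 lower in the combination than with Corin alone 4 did, where 45.3% of all such regions did. An AP-1 match was also in 3 of the 14 regions that rose with ATRA (21.4%, against 9.11% of all that rose). Of these 3 Corin sites 1 is the BCL2L11 region, where the match lies in exonic sequence that is not printed. A PU.1 match was in 2 of the 14 regions that rose with ATRA (14.3%, against 15.6% of all that rose) and in 0 of the 13 that fell (against 3.56% of all that fell). The direct repeat of the retinoic acid receptor half-site with a spacer of 5 matched 0 of the 248 windows and 0.0905% of all regions. A match is a description of letters and does not show that a factor binds.

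Other genes of the pathway were taken from a list of 28, with 10 further family members and 18 genes of the mitochondrial and caspase pathway. Within the same windows they had 371 regions, 197 in all 4 lists (53.1%, against 41.1% of all regions). ATRA moved 20 of the 197 up and 16 down (10.2% and 8.12%, against 12.5% and 10.3% of all 66303 shared regions). Corin moved 11 and 10 (5.58% and 5.08%, against 6.38% and 7.58%), and the combination 16 and 14 (8.12% and 7.11%, against 9.07% and 9.95%). Relative to ATRA alone the combination moved 29 up and 10 down (14.7% and 5.08%, against 9.6% and 12.2%). All 18 genes of the mitochondrial and caspase pathway had an open promoter in every list, again without a matching share of all coding genes. Of the 10 further family members 7, 7, 8 and 7 had one in DMSO, ATRA, Corin and the combination. The promoter of BIK, a BH3-only gene, ranked 38.9 in DMSO, 17.1 in ATRA, 69.8 in Corin and 63.9 in the combination. That of HRK, another BH3-only gene, ranked 41.5, 14.4, 55.4 and 27.3. The promoter of APAF1, the scaffold of the apoptosome, ranked 77.8, 54.9, 72.5 and 81.9. The same dip with ATRA alone was seen at BIRC2, VDAC2 and FADD, at 95.2, 89.3 and 64.5 in DMSO and 66.1, 69.1 and 38.3 in ATRA. In all, ATRA moved down the strongest promoter region of 4 of these 18 genes and of 2 of the 7 further family members with a shared one. Over all coding promoters 10.3% moved down with ATRA. BCL2L10 had a promoter region with Corin only, at a fold of 1.9.

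The label of the line was compared with promoters of marker genes. Promoters of 7 of 8 myeloid genes were open in every list, with MPO as the exception. Of the lymphoid genes, PAX5 and CD79A were open in each list and CD3E, CD3D and MS4A1 in none. Of the erythroid genes, EPOR was open in all lists, GATA1 in DMSO and Corin only, and HBB and KLF1 in none. The GATA1 region was weak where called, with a fold of 2.16 in DMSO and 2.60 in Corin (−log10 p of 4.82 and 7.66). The part of any of these in the results was not tested.

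The edge of the windows was an arbitrary limit. At BCL2A1 a region 50385 bp from the gene body (79909321 to 79910506), just outside, had a fold of 7.17, 13.2, 5.35 and 9.64 in the 4 lists. At BID the outermost region inside, 49614 bp from the gene body, was called with ATRA only at a fold of 5.54.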

How the data were processed

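Chromatin accessibility of U-937 was measured in 8 samples, 2 per group as the labels give them. Both replicates of a group share 1 deposited peak list, in which the authors had combined them. The submitters' processing notes name cutadapt, Bowtie2, SAMtools, Picard, MACS2 and hg38, without roles or versions, and the peak-calling settings are not given in the sources used here. In the deposited lists column 7 is the authors' fold, a ratio of signal at the summit to nearby background. Each deposited p is a −log10 value, and the authors' q score is likewise −log10 q. The largest peak end lay inside the hg38 length on 24 of 24 chromosomes. No per-sample columns were left out (0).

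Within a list, peaks that overlapped were joined into 1 region, keeping the autosomes, X and Y, and regions of the 4 lists that overlapped were joined into union regions. An overlap of 1 bp or more with the second list made a counterpart. The value of a region in a list is that of its strongest peak. Genes and starts came from GENCODE release 44. Promoter regions lay within 1 kb of an annotated start. Shares of gained and lost regions and some shares of moved regions carry 95% Wilson intervals. With 1 list per group there were no tests. Gained, lost and moved regions were compared in 5 pairs of lists.

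The members and all lists of genes and motifs were chosen with earlier results of these data known. For each gene the rule named the strongest promoter region, the strongest other region, the strongest gained and lost region with each treatment and the largest rise and fall in rank. Outside this rule, the BCL2 regions starting at 63141559 and 63236082, the BCL2L1 region starting at 31705901 and the regions at the window edges were chosen after their values were seen, as was the limit of 35 points for the largest changes. A few items that these rules select are not reported here. The calculations were tested on simulated data, and bedtools gave the same overlap counts in 10 of 10 comparisons. Alternatives were a limit of 5 on −log10 q, lists of equal length, 50% of a region covered, peaks within 150 bp merged, windows of 10 and 100 kb, ranks by −log10 p, a move of 10 points, a fold ratio of at least 1.5 in place of ranks, a promoter limit of 500 bp and the 5′ end of the gene record as the only start. Python 3.11.15, numpy 2.4.6, pandas 2.3.3, scipy 1.17.1, matplotlib 3.10.9 and bedtools 2.31.1 were used.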

Additional observations from a re-analysis of the deposited data

How the results depend on the processing

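The 10 genes had a promoter region in every list under all 12 alternatives tried for it. Of 60 alternative shares of gained or lost regions 51 stayed inside the counting interval of the reported share, and of 60 alternative shares of moved regions 49 did. The share of all regions under the same setting follows each value after "against". With a −log10 q of at least 5, the share lost was 15.8% (against 17.5%) for ATRA against DMSO and 19.3% (against 17.2%) for the combination against Corin, and the share gained was 6.47% (against 9.06%) for the combination against ATRA. With windows of 10 kb, 13.2% (against 25.3%) were lost with ATRA, 4.23% (against 15.5%) were gained and 1.72% (against 12.2%) moved down in the combination against ATRA. With lists of equal length, 15.5% (against 19.7%) were lost with Corin, 18.2% (against 21.2%) were gained and 21.1% (against 20.8%) lost with the combination against DMSO, and 17.5% (against 19.03%) were lost in the combination against ATRA. Ranked by −log10 p, 1.69% (against 7.32%) moved down in the combination against ATRA. With a limit of 10 points, 23.7% (against 23.5%) moved up and 26.3% (against 27.3%) down with ATRA, 14.4% (against 18.9%) up with Corin, 18.6% (against 22.2%) up and 12.7% (against 20.6%) down with the combination against DMSO, 24.6% (against 27.4%) up and 17.8% (against 22.7%) down against ATRA, and 12.7% (against 19.4%) up and 15.3% (against 18.9%) down against Corin. With windows of 100 kb, 6.75% (against 6.38%) moved up with Corin, above the share of all regions rather than below it. The smaller limit and the shorter lists change these shares by construction, and the cause of the other shifts was not tested. No paired analysis was possible because the replicates of each group were combined in 1 list, and no replicate could be left out for the same reason. The read depth is unknown, so a region absent from a list may lie below the limit of calling.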
